A study of Mus musculus with 4 samples.

Results

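Paneth cells were examined in intestinal adenomas of ApcMin/+ mice labelled as Lef1 wild type or as carrying a conditional Lef1 deletion. The cells were picked from the unfiltered matrices by a rule on their own transcripts. A barcode had to hold at least 2000 UMIs (unique molecular identifiers, each standing for 1 captured transcript), at least 200 genes and at most 20% mitochondrial UMIs. The 4 rule genes Lyz1, Defa24, Defa30 and Ang4 had to make up at least 1% of its UMIs, with at least 3 of them detected and the leukocyte gene Ptprc absent. The rule found 105 barcodes among the 11263 that passed the depth and quality limits, and 9584 other barcodes were epithelial. They are called Paneth-rule cells below, because the cells were not uniform: 41 of the 105 also met the goblet-type rule described further on. The leading genes and the levels of the rule genes were fixed by the choice of cells and are given as a description without a test.

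The 2 groups were ApcMin/+;Lef1 +/+ (ApcMin) and ApcMin/+;Lef1 fl/fl with Villin-Cre (VApcMinL), each with 2 libraries from C57BL/6 mice of 11 weeks labelled male. Both groups carry the Min allele of Apc, so no normal epithelium serves as a control. Villin-Cre is active in the intestinal epithelium, Paneth cells included. Several adenomas were pooled for a library and the dissociated cells were not sorted. The reagents were version 2 of the 10x 3′ kit for both replicate 1 libraries and version 3 for both replicate 2 libraries, so each kit holds 1 library per group. Libraries are given below in the order ApcMin 1, VApcMinL 1, ApcMin 2 and VApcMinL 2, and are named by their labels.

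Paneth cells sit at the base of the small intestinal crypts, between the Lgr5-positive stem cells. They fill their granules with lysozyme, alpha-defensins and other antimicrobial proteins, and they supply niche signals such as the ligand Wnt3 to the neighbouring stem cells. Their maturation depends on Wnt signaling through TCF/LEF factors. They share the secretory lineage, and the transcription factor Atoh1 that opens it, with the mucus-producing goblet cells.

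The libraries held 44660305 to 128247396 UMIs, and 2071 to 4217 barcodes were kept in each. They contributed 15, 18, 26 and 46 Paneth-rule cells with a median of 25597, 18442, 35754 and 35312.5 UMIs per cell, against 13985 to 27440.5 in other epithelial barcodes. The largest single cell gave 7.20% to 20.2% of the summed Paneth-rule UMIs of a library, and the largest 3 gave 18.4% to 50.8%, so the sums rest on few cells. All 105 cells detected at least 3 of 8 epithelial genes (Epcam, Krt8, Krt18, Krt19, Cdh1, Cldn3, Cldn7 and Krt20). A further 33 barcodes lay just under the limit, between 0.5% and 1%. The members nearest to the limit held 1.02%, 1.14%, 1.01% and 1.01% rule-gene UMIs, and the nearest barcodes outside it held 0.985%, 0.755%, 0.981% and 0.975%. Scrublet, which scores barcodes for likeness to simulated doublets, marked 3 of the 105. The kit 2 libraries shared 9 kept barcodes, 1 of them a Paneth-rule cell in VApcMinL 1, and the kit 3 libraries shared 0. Free RNA, read from barcodes with 10 to 100 UMIs, held 0.0812% to 0.466% rule-gene UMIs, and no barcode with Ptprc met both the limit of 1% and the requirement of 3 detected genes.

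Lef1, the deleted gene, encodes a Wnt-pathway transcription factor and was counted at 2, 0, 0 and 7 UMIs in Paneth-rule cells, or 3.64, 0, 0 and 3.98 CPM (UMIs per 1000000 of the summed cells). In other epithelial barcodes it was at 4.49, 10.6, 9.30 and 15.4 CPM, higher in the library labelled VApcMinL than in its ApcMin partner within both kits. The level therefore went against the labels. The UMIs count 3′ ends, and a transcript lacking internal exons can still be counted, so the level does not check the deletion. The libraries also differed in the X-inactivation transcript Xist and in Y-linked genes, although all were labelled male. In ApcMin 1 and ApcMin 2, 0 Paneth-rule cells held Xist and 10 and 23 held Y-linked UMIs. In VApcMinL 1 all 18 held Xist and 0 held Y-linked UMIs, whereas in VApcMinL 2 there were 8 with Xist alone, 24 with Y-linked UMIs alone and 10 with both. Cells with Xist thus occurred in the VApcMinL library of both kits and in no ApcMin library, and the part of sex in any difference between the groups was not tested.

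Defa24, an alpha-defensin gene (ENSMUSG00000064213, chromosome 8, 21734494 to 21735471 on GRCm38), was the most abundant rule gene in summed Paneth-rule cells. It was at 191070, 62206, 195728 and 109968 CPM, against 60.9 to 263 CPM in other epithelial barcodes. Defa30, a second alpha-defensin gene (chromosome 8, 21134642 to 21135598), was at 117595, 14788, 71859 and 42081 CPM. Both were lowest in VApcMinL 1, where a single cell gave nearly all of the Defa30 UMIs. Lyz1, which encodes lysozyme (chromosome 10, 117287797 to 117292868), was at 10311, 9641, 19693 and 22768 CPM. Ang4, which encodes an antimicrobial angiogenin (chromosome 14, 51763878 to 51773590), was at 2905, 5591, 8599 and 4744 CPM. Lyz1 was lower in both kit 2 libraries than in both kit 3 libraries, and Ang4 was lowest in ApcMin 1. In other epithelial barcodes Lyz1 was at 86.3 to 302 CPM, close to its level of 160 to 236 CPM in free RNA. The rule genes were 32.2%, 9.22%, 29.6% and 18.0% of all Paneth-rule UMIs, and the 27 measured alpha-defensin genes together were 49.3%, 9.46%, 40.8% and 24.8%. Defa24 was detected in 105 of 105 cells, Lyz1 in 102, Ang4 in 90 and Defa30 in 88.

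Outside the rule genes, 20 genes led the contrast with other epithelial barcodes, ranked by their lowest difference over the 4 libraries among genes at 50 CPM or more. Among all 20871 genes with UMIs, 255 (1.22%) were higher in Paneth-rule cells than in other epithelial barcodes in all 4 libraries. Of the 20, 11 were alpha-defensin genes, which the rule selects for. Gm14851, one of them, was at 37278, 3454, 37763 and 14275 CPM, and AY761184 was at 27492, 2725, 42846 and 14513 CPM. Both were lower in the VApcMinL library of each kit, and in VApcMinL 1 a single cell gave 99.9% of the Gm14851 UMIs.

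The other 9 were genes of granule content, secretion and defence. Itln1, which encodes the lectin intelectin, was at 11781, 5679, 24457 and 13512 CPM, 44.7-fold to 146-fold over other epithelial barcodes. Mmp7, the metalloproteinase that activates alpha-defensins in mice, was at 1359, 1200, 1673 and 2821 CPM, 15.2-fold to 25.9-fold over. Mptx2, a pentraxin, was at 2460, 1673, 6478 and 4539 CPM, and Clps, which encodes colipase, was at 3837, 2646, 4030 and 2214 CPM. All 4 were also at least 3.28-fold above goblet-type barcodes in each library. Spink4, Reg4, Retnlb and Ccl6 were on the list too but were below goblet-type barcodes in at least 1 library. Spink4, a secreted protease inhibitor, was at 16876 to 69688 CPM, or 0.754-fold to 2.01-fold of the goblet-type level, and Reg4 was at 0.485-fold to 1.83-fold. The chemokine genes Ccl6 and Ccl9 were at 399 to 1336 CPM and 148 to 389 CPM, and Retnlb, which encodes a secreted resistin-like protein, was at 150 to 3390 CPM.

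**Figure D1:**
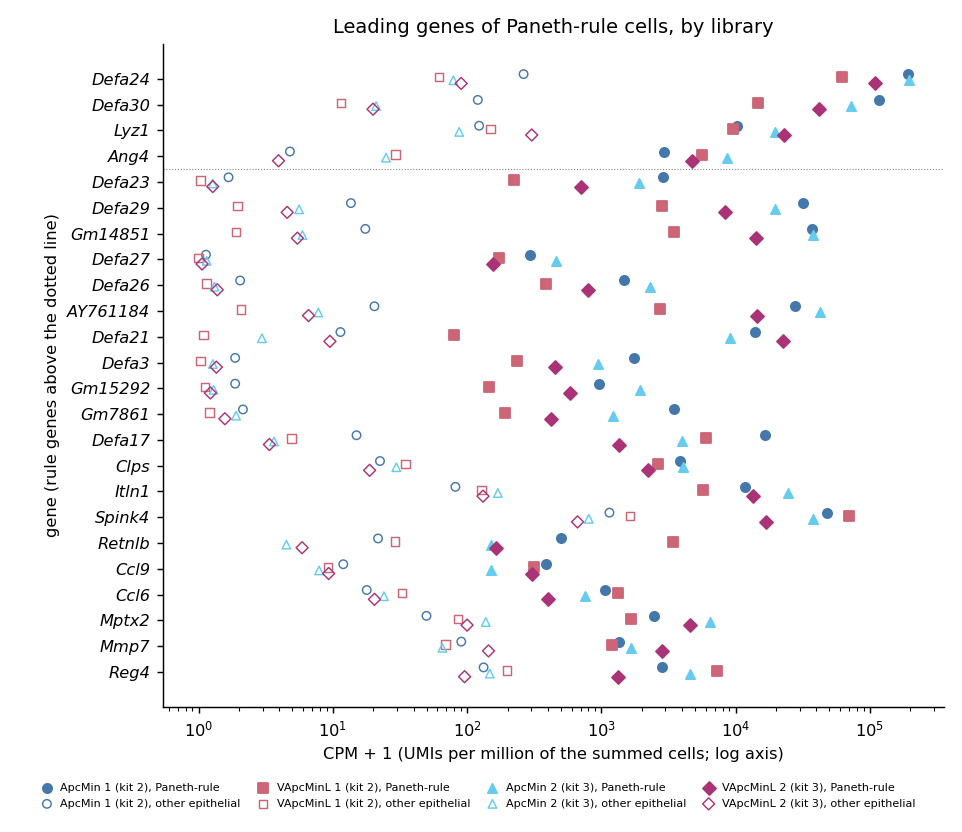
CPM plus 1 (log axis) of the 4 rule genes and the 20 leading genes in summed Paneth-rule cells (filled) and other epithelial barcodes (open) of each library, one symbol shape per library. Filled and open symbols do not overlap for any gene shown, and the alpha-defensin genes of VApcMinL 1 lie to the left of the other filled symbols for most genes.

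The alpha-defensin genes form 1 cluster on chromosome 8, in which the 27 measured genes lie between positions 21025545 and 21735471. They are near-identical copies, so their reads can be shared between them, and a level for a single gene is uncertain. The uncertainty was visible between kits. Defa37 was at 10912 and 709 CPM in the kit 2 libraries and at 0 in both kit 3 libraries, Defa36 was at 0 in both kit 2 libraries and at 3450 and 4551 CPM in the kit 3 libraries, and the gene annotation differed between the kits too. The promoters of these genes are shown because they carry the letters that TCF/LEF factors recognise. RefSeq promoters (GRCm38.p6) were found for 12 of the 27 genes and for 3 of the 4 rule genes. The motif ATCAAAG or its reverse complement CTTTGAT was searched on both strands in the 250 bases before the gene start. It was present in 12 of 12 alpha-defensin promoters, and 8 of these held 2 matches, against 1053 of 32817 promoters overall (3.21%). The copies descend from common ancestors and are not independent, and a match is only a match of letters. Lyz1 and Ang4 had 0 matches in this window, and among 12 other leading and antimicrobial genes with a promoter, 2 had a match, namely Mmp7 in 1 of its promoters and Reg3g. The 250 bases before the RefSeq start of Defa30 (chr8:21134400-21134649, plus strand) are printed with the motif in capitals. The annotation used for the gene positions above starts Defa30 slightly earlier, at 21134642, so the end of the window lies inside the gene by that annotation.

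Defa30: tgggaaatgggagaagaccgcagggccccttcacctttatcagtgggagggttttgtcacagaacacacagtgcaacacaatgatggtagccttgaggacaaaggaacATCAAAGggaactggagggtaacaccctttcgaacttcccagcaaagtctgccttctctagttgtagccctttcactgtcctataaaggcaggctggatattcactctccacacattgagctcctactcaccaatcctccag

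The 29 bases around the motif farthest from the gene start took 7 forms over the 12 genes, and 1 gene of each form is shown. The forms are aligned on the motif (capitals), each with its position on the plus strand of GRCm38.p6 and its distance to the gene start.

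Defa30, chr8:21134497-21134525, motif 142 bases before the start: gacaaaggaacATCAAAGggaactggagg
Defa23, chr8:21054915-21054943, motif 114 bases before the start: gacaaaggaacATCAAAGggaacttgagg
Defa28, chr8:21582932-21582960, motif 84 bases before the start: gacagaggaacATCAAAGggaacttgagg
Defa21, chr8:21025422-21025450, motif 112 bases before the start: gacattggcacATCAAAGagatcttaatg
Defa20, chr8:21509135-21509163, motif 112 bases before the start: gacattggcacATCAAAGagatcttgatg
Defa35, chr8:21064900-21064928, motif 127 bases before the start: aacagaggaacATCAAAGtgatcttgatg
Defa36, chr8:21427290-21427318, motif 127 bases before the start: aacagaggaacATCAAAGggatcttgatg

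Single cells differed more than the libraries did. The alpha-defensin share of a cell ran from 0.00775% to 80.1% of its UMIs, with medians of 12.7%, 2.76%, 4.88% and 12.7% in the 4 libraries. At least 20% was reached by 31 of the 105 cells (7, 2, 7 and 15), 21 cells held 5% to 20%, and 53 held less than 5%. The median cell and the summed cells gave different orders: in kit 3 the VApcMinL library had the higher median cell and the lower sum.

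The cells were then described by their rule-gene share and by goblet genes. A cell met the goblet-type rule if Muc2, Fcgbp, Clca1 and Zg16, which encode mucus proteins, made up at least 0.5% of its UMIs with at least 3 of the 4 detected. The split at a rule-gene share of 5% was set after the values were seen, and both measures are among those that chose the cells or describe them, so the 4 kinds are a description. The largest kind, with 5% or more and no goblet-type call, held 46 cells (8, 3, 8 and 27). Their median alpha-defensin share was 33.1%, with 20 alpha-defensin genes detected per cell. Median levels per 10000 UMIs were 256 for Lyz1, 583 for Defa30, 178 for Itln1 and 6.24 for Muc2. Wnt3 was detected in 32 of the 46. Gm14851 was detected in 30 of the 46.

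A second kind, with less than 5% and a goblet-type call, held 31 cells (2, 11, 12 and 6). Their median levels per 10000 UMIs were 149 for Muc2, 142 for Fcgbp and 486 for Tff3, a peptide secreted with mucus, against 8.74 for Lyz1 and 0.247 for Defa30. Defa24 was still at 181 per 10000, and 2 alpha-defensin genes were detected in the median cell. The median share of UMIs was 11.1% for the 4 goblet genes and 1.98% for the alpha-defensins. These cells thus held goblet and Paneth transcripts side by side, with the goblet share the larger, although Defa24 was above Muc2 alone in the median. Of the 18 cells of VApcMinL 1, 11 were of this kind. In between were 10 cells (1, 2, 5 and 2) with 5% or more and a goblet-type call, at medians of 10.8% alpha-defensins, 80.7 Muc2 and 1006 Defa24 per 10000 UMIs.

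The remaining 18 cells (4, 2, 1 and 11) had less than 5% and no goblet-type call. Their median Lyz1 level was 81.3 per 10000 UMIs, Defa24 was at 63.0 and Muc2 at 0.516. Clu, a gene of regenerating epithelium, was at 11.8 per 10000, against 0.729 to 1.22 in the other 3 kinds. They also had the highest median mitochondrial share, at 5.63%, and the most genes, at 5288.5. Lyz1 was the most abundant rule gene in 8 of these 18 cells and in 12 of all 105, whereas Defa24 led in 87, Ang4 in 5 and Defa30 in 1.

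**Figure D2:**
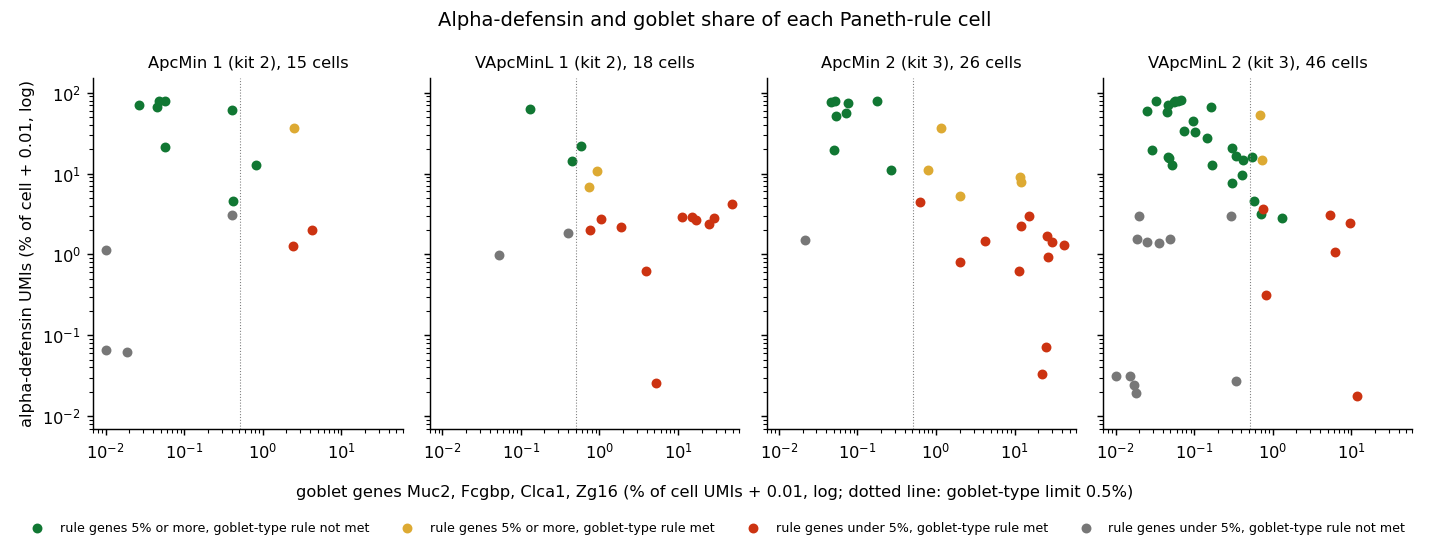
Alpha-defensin share of each Paneth-rule cell (y axis) against its share of the goblet genes Muc2, Fcgbp, Clca1 and Zg16 (x axis), both in percent of the UMIs of the cell plus 0.01 on log axes, with 1 panel per library and 1 point per cell. Colors mark the 4 kinds by rule-gene share and goblet-type rule. Most cells above 20% alpha-defensins are left of the dotted line, the goblet-type limit of 0.5%, and VApcMinL 1 has 2 of them.

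Transcription factors of the secretory lineage were present at low levels. Atoh1 was at 30.9, 125, 38.4 and 36.3 CPM in Paneth-rule cells, against 3.05 to 4.16 CPM in other epithelial barcodes. Spdef, a factor of goblet and Paneth maturation, was at 40.0, 92.9, 64.0 and 53.4 CPM against 12.9 to 17.6 CPM, and Creb3l1, a factor of secretory capacity, was at 50.9 to 113 CPM against 18.9 to 20.3 CPM. Both Atoh1 and Spdef were highest in VApcMinL 1, the library with the largest summed level of goblet genes. Sox9, which Paneth cell formation requires, was at 56.4, 102, 57.6 and 134 CPM and within the range of other epithelial barcodes at 65.1 to 109 CPM in 1 library only. Of the 18 listed factors 6 were above other epithelial barcodes in all 4 libraries and 3 were below. Of 26 genes of protein folding and secretion 4 were above in all 4 libraries and 5 were below. Of all 20871 genes with UMIs 1.22% were above and 53.3% were below in all 4 libraries. Among the 6520 genes tested between the groups 73.8% were below. Agr2, a disulfide isomerase of mucin-secreting cells, was at 3780, 7831, 4627 and 3626 CPM against 702 to 1134 CPM, and Hspa5, the main chaperone of the endoplasmic reticulum, was below them at 246 to 475 CPM against 358 to 590 CPM.

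Of the niche ligands, Wnt3 stood out from other epithelial barcodes. It was at 18.2, 17.4, 26.2 and 47.7 CPM in Paneth-rule cells, against 0.402 to 0.782 CPM in other epithelial barcodes. Wnt3 was detected in 48 of the 105 cells, or 33.3%, 16.7%, 38.5% and 65.2% of them, and in 0.432% to 1.38% of other epithelial and 0% to 0.355% of Ptprc-positive barcodes. With every barcode thinned to 2000 UMIs the shares were 0%, 0%, 3.85% and 6.52% in Paneth-rule cells and 0% to 0.274% in other epithelial barcodes, so few cells remained positive at that depth. Dll4, a Notch ligand, was at 10.9, 11.6, 8.96 and 9.65 CPM, against at most 3.08 CPM. Egf, a growth factor that normal Paneth cells make, was at 0, 0, 1.28 and 1.14 CPM. Tgfa, an EGF receptor ligand, was lower than in other epithelial barcodes in all 4 libraries, at 7.28, 8.71, 7.68 and 11.4 CPM against 14.6 to 19.4 CPM. Ereg, another ligand of that receptor, had 0 UMIs. Of the 16 listed niche genes 3 were above and 8 were below in all 4 libraries. Of all 20871 genes with UMIs 53.3% were below in all 4 libraries, and of the 6520 genes tested between the groups 73.8% were.

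Of 31 listed Wnt target and stem cell genes 23 were below other epithelial barcodes in all 4 libraries and 1, the surface gene Cd24a, was above. Of the 31, 20 were tested between the groups. The share of 23 of 31 lies near the 73.8% of tested genes that were below in all 4. It lies above the 53.3% of all genes with UMIs. Cd24a was at 520, 1182, 413 and 684 CPM against 178 to 403 CPM. Nkd1, a feedback inhibitor of the pathway, ranged from 4.48 CPM in ApcMin 2 to 71.0 CPM in VApcMinL 2, against 72.1 to 231 CPM. Notum, a secreted Wnt deacylase, was at 10.9, 17.4, 0 and 39.2 CPM against 45.4 to 156 CPM. Lgr5, the stem cell receptor for R-spondin, was at 5.46, 5.81, 21.8 and 62.5 CPM against 10.2 to 27.5 CPM. VApcMinL 2 had the highest level of Nkd1, Notum and Lgr5 among the Paneth-rule cells. Because alpha-defensins fill up to 49.3% of the Paneth-rule UMIs of a library, the CPM of every other gene is lowered by their share.

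**Figure D3:**
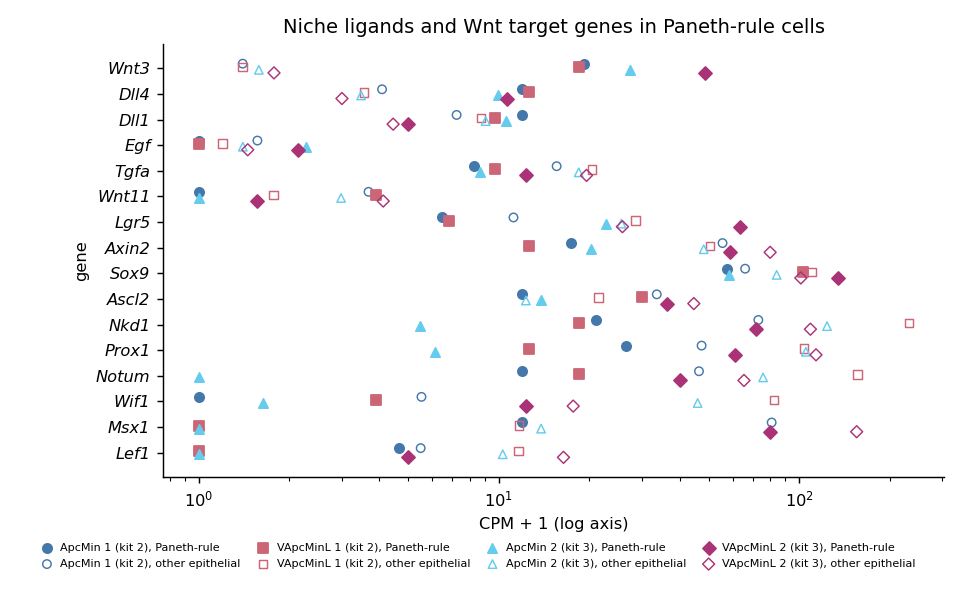
CPM plus 1 (log axis) of niche ligands, Wnt target genes and Lef1 in summed Paneth-rule cells (filled) and other epithelial barcodes (open) of each library. For Wnt3 all filled symbols lie at 17.4 CPM or more and all open symbols under 1 CPM, whereas for Nkd1, Notum and Wif1 the filled symbols lie to the left of the open symbol of the same library.

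Markers of other cell types were mostly low, apart from goblet genes. The T cell genes measured (3) summed to 3.64, 0, 0.640 and 0.568 CPM in Paneth-rule cells, with Cd8a at 0 in all 4 libraries. The 4 B and plasma cell genes summed to 719, 137, 3.84 and 8.52 CPM, with Ms4a1 at 0 in every library. The 3 red blood cell genes summed to 682 CPM in ApcMin 1 and to 0 to 37.8 CPM elsewhere, and the 4 fibroblast genes summed to 0 to 43.7 CPM. The 8 enterocyte genes summed to 973, 8662, 3278 and 4070 CPM, all 8 below other epithelial barcodes in all 4 libraries, as were 73.8% of tested genes. The 10 goblet genes summed to 63231, 171868, 85241 and 28134 CPM, against 3188 to 7408 CPM in other epithelial barcodes. Of the 10, 9 were above other epithelial barcodes in all 4 libraries, as were 1.22% of all genes with UMIs. Goblet and enterocyte genes were thus highest in VApcMinL 1, in which the alpha-defensins were lowest, and their part in the differences below was not tested.

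A question of the study is whether Lef1 loss alters ectopic crypts, in which Lyz1 marks Paneth cells. Paneth-rule cells were 0.804% of epithelial barcodes in ApcMin 1 (95% exact Clopper-Pearson interval 0.451% to 1.32%), 0.859% in VApcMinL 1 (0.510% to 1.35%), 1.41% in ApcMin 2 (0.920% to 2.05%) and 1.19% in VApcMinL 2 (0.870% to 1.58%). The groups overlapped, and the kits differed more than the groups. VApcMinL differed from ApcMin by -0.0819 percentage points (two-sided exact permutation test, p = 1.0), by 0.0553 within kit 2 and by -0.219 within kit 3. With 2 libraries against 2 the smallest p this test allows is 0.333. Among the 56 cells with a rule-gene share of 5% or more the shares were 0.482%, 0.239%, 0.703% and 0.748%. Not counted were 1, 5, 1 and 17 barcodes that lacked Ptprc and reached 1% but detected fewer than 3 rule genes. More of them were in VApcMinL than in ApcMin within each kit. The 3-gene requirement was not varied, so the share difference holds only for cells that meet it. The intervals cover counting error only, and adenomas were dissociated, so a lower yield of a cell type and fewer cells in the tissue cannot be told apart.

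**Figure D4:**
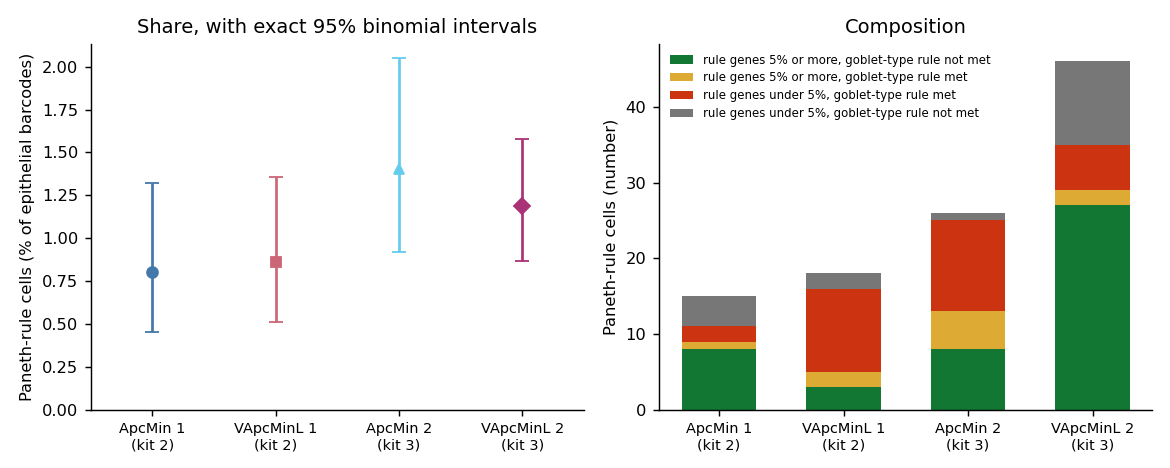
Left, Paneth-rule cells as percent of epithelial barcodes in each library with 95% exact binomial intervals. Right, number of Paneth-rule cells per library, stacked by the 4 kinds. The 4 intervals overlap, and the goblet-type cells with a rule-gene share under 5% (red) make up 11 of 18 cells in VApcMinL 1 and 6 of 46 in VApcMinL 2.

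Msx1, a homeobox gene that the study uses as a marker of ectopic crypt cells, was sought in the same cells. After thinning to 2000 UMIs it was detected in 0 of 15, 0 of 18, 0 of 26 and 3 of 46 Paneth-rule cells. The last share was 6.52% (95% exact interval 1.37% to 17.9%), and the counts of 0 allow up to 20%, 16.7% and 11.5% of cells with a UMI at this depth (3 cells of the total), which limits detection and not expression. Without thinning Msx1 was found in 2, 0, 0 and 13 cells. In other epithelial barcodes the thinned shares were 9.02%, 1.83%, 1.70% and 19.7%, and in Ptprc-positive barcodes, which should lack the gene, they were 1.22%, 0.327%, 1.17% and 3.90%. The interval of VApcMinL 2 holds the Ptprc-positive share, so its Paneth-rule share cannot be read as above background. The group difference was 3.26 percentage points (two-sided exact permutation test, p = 1.0). Of the 15 cells with Msx1 at full depth, 9 were among the 46 cells of the kind rich in alpha-defensins. The other 6 were among the 18 cells with neither many alpha-defensins nor goblet genes, a larger share. After thinning, 0 of the 29 cells with a rule-gene share of 5% or more in VApcMinL 2 held Msx1.

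Gene levels were compared between VApcMinL and ApcMin on UMI sums per library with the kit as a block. None of 6520 genes tested (0%) passed an adjusted p of 0.05 in edgeR (quasi-likelihood, p-values adjusted by Benjamini-Hochberg). With 4 libraries and terms for kit and group few degrees of freedom remain, so the lack of calls does not show equal levels. The smallest adjusted p was 1.00, and 43 genes (0.66%) had an unadjusted p under 0.05, of which 19 were higher and 24 lower in VApcMinL. DESeq2, run on the same sums, called 11 of the 832 genes for which it gave an adjusted p (1.32%), all of them lower in VApcMinL. Of these 11, 10 were alpha-defensins (Defa23, Gm14851, Defa30, Gm15292, Defa3, Defa29, Gm7861, Defa26, Defa17 and AY761184) and 1 was Tff2, a trefoil peptide gene. Defa30 is a rule gene, so its call is a description, and the other alpha-defensins are near-identical copies that can share its reads. The call on the alpha-defensins therefore depended on the tool.

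Fitted differences are scaled by TMM (trimmed mean of M values), so a gene can be higher in CPM and lower in the fit, as Lyz1 was within kit 3. Lower in VApcMinL within both kit pairs were 1500 of the 6520 genes (23%), and 1276 (19.6%) were higher in both. Of 24 alpha-defensins tested, 14 were lower in both pairs and 0 were higher in both, and 9 had an unadjusted p under 0.05. The rule genes Defa24 and Defa30 are among the 24. The fitted log2 difference was below 0 for all 24, with a median of -2.98 against -0.02 over all genes. The median was -4.45 in kit 2 and -1.19 in kit 3. Defa27, at 293, 171, 461 and 154 CPM, differed by -1.88 (SE 0.38), and Defa26, at 1481, 389, 2320 and 793 CPM, by -2.43 (SE 0.55). Gm15292, at 968, 145, 1932 and 586 CPM, differed by -2.91 (SE 0.60). In these 3 genes both VApcMinL libraries lay below both ApcMin libraries, although the smallest adjusted p of any gene in edgeR rounded to 1.00. In VApcMinL 1 a single cell gave 87.3% or more of the UMIs of each. Defa21 was lower in kit 2 only, at 14001 against 78.4 CPM, and higher in kit 3, at 22673 against 9141 CPM.

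The size of the alpha-defensin difference depended on which cells were summed. With the members of 5% or more alone, the median over the alpha-defensins was -2.07, and with the largest cell of each library left out it was -2.32. With each cell thinned to 2000 UMIs, which gives every cell the same weight, it was -1.55 over 18 genes. Among the cells outside the goblet-type rule it was -3.18. With no kit block it was -2.43 over all 4 libraries. With no block and any 1 library left out it was between -4.33 (without VApcMinL 2) and -1.73 (without ApcMin 1). The share of cells with few alpha-defensins was highest in VApcMinL 1 (13 of 18), and a smaller number of defensin-rich cells and less alpha-defensin RNA per cell cannot be told apart in these sums. Cells of 5% or more with no goblet-type call held a median of 54108, 25291, 135222 and 35269 UMIs, more in ApcMin within each kit. The part of this depth in the sums was not tested.

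The 10 genes tested on the antimicrobial list that are not alpha-defensins had a median log2 difference of -0.65, with 0 called and 5 lower in both kit pairs. The median was 0.20 with thinned cells and -0.06 in the members of 5% or more, the thinned value being over 8 genes. Itln1 differed by -1.65 (SE 1.07) and Mptx2 by -1.23 (SE 0.67), both lower in VApcMinL within each kit. Mmp7 differed by -0.41 (SE 0.61). For the rule gene Lyz1, given as a description only, the fitted value was -0.64 (SE 1.06).

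**Figure D5:**
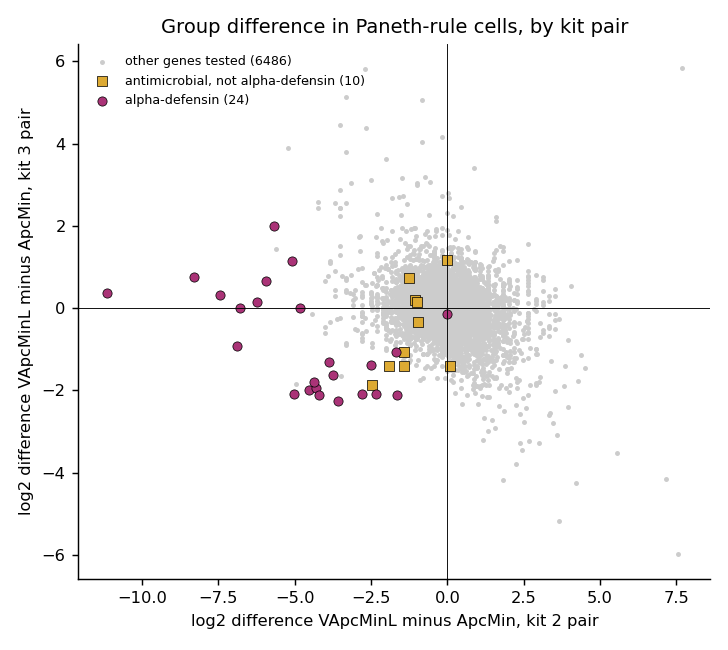
Log2 difference of VApcMinL minus ApcMin in Paneth-rule cells within the kit 2 pair (x axis) and the kit 3 pair (y axis) for all 6520 genes tested, 1 point per gene. Of the 24 alpha-defensin genes (purple) 14 lie in the lower left of the plot, where 1500 of all genes tested lie, and the other alpha-defensins are low in kit 2 and near or above 0 in kit 3, except Defa36, which is near 0 in both.

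By the rule for naming genes, up to 5 genes with the smallest unadjusted p are given in each direction, and none passed the adjusted threshold. Higher in VApcMinL were Xist, the regenerating-islet gene Reg1, the keratin gene Krt23, the fibronectin gene Fn1 and Acadl, a gene of fatty acid oxidation. Reg1 was at 45.5, 279, 191 and 794 CPM, a log2 difference of 1.63 (SE 0.37), and 32.0% to 78.9% of its UMIs in each library came from 1 cell. Fn1 was at 5.46, 20.3, 1.28 and 42.6 CPM. Lower in VApcMinL were Pnliprp2, Defa27, Gm15292, Defa26 and Tff2. Pnliprp2, a pancreatic-type lipase that normal Paneth cells express, was at 111, 34.9, 422 and 168 CPM and differed by -2.15 (SE 0.39). Tff2 was at 191, 29.0, 138 and 62.5 CPM, and 97.1% of its UMIs in ApcMin 1 came from 1 cell.

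Of the 20 Wnt target genes tested 0 were called. Their median log2 difference was 0.31, with 3 lower and 4 higher in both kit pairs. It was 0.41 with no kit block, and -0.41 over 14 genes with no block and without VApcMinL 2. Axin2, a direct target of the pathway, was at 16.4, 11.6, 19.2 and 57.9 CPM and differed by 0.28 on the log2 scale. None of the 26 secretion genes, 16 lineage factors or 8 niche genes tested was called either, with medians of -0.22, -0.09 and -0.12. Wnt3 differed by -0.11. Among 15 cell cycle genes 2, Ccnb2 and Cenpf, had an unadjusted p under 0.05, both higher in VApcMinL, and the median of the 15 was 0.06. Of 12 stress genes 2 had an unadjusted p under 0.05, both lower, namely Fosb and Atf3, and the median was -0.25. The 8 enterocyte genes had a median of 0.75 and the 10 goblet genes of -0.34, with 0 called. The kit pairs went opposite ways, at 1.47 in kit 2 and -0.47 in kit 3 for enterocyte genes and at 1.12 and -2.02 for goblet genes. The fits with a library left out had no kit block. With no block and all 4 libraries the enterocyte median was 0.98 and the goblet median 0.04. The enterocyte median was 0.05 without VApcMinL 1. The goblet median ran from -1.76 without VApcMinL 1 to 0.75 without VApcMinL 2, with 0.50 without ApcMin 2. At a rule-gene limit of 2%, with the block kept, the goblet median was 0.33.

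A second fit asked whether the group difference in Paneth-rule cells differed from that in other epithelial barcodes of the same libraries. It called 49 of 13747 genes (0.356%) by edgeR at an adjusted p of 0.05, 40 (0.291%) with a more positive and 9 (0.0655%) with a more negative difference in Paneth-rule cells. Of the 35 genes tested on the antimicrobial list 7 were called, all more negative, and of 8 enterocyte genes 5 were called, all more positive. The 7 were Itln1, Mptx2, Clps, Pnliprp2, Defa22, Gm7861 and the rule gene Lyz1. Clps, which encodes colipase, and the lipase gene Pnliprp2 are on that list but are not antimicrobial by name. Only barcodes that met every part of the rule were removed from the other barcodes. The 1, 5, 1 and 17 barcodes that reached 1% with fewer than 3 rule genes could remain there if epithelial. The part of these barcodes in the Lyz1 value was not tested. The level of Lyz1 also helped choose the cells, so its call is a description. Defa22 and Gm7861 are alpha-defensins that can share reads with the rule genes, so their calls are a description too. Itln1 was lower in the VApcMinL Paneth-rule cells of both kits, whereas in other epithelial barcodes it was at 80.8, 127, 169 and 130 CPM. The difference of the log2 differences was -1.62 (SE 0.31, adjusted p = 0.000242 in edgeR).

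The enterocyte genes called were Sis, Fabp1, Apoa1, Apoa4 and Rbp2, which serve sugar digestion and lipid and retinol handling. In free RNA the 8 enterocyte genes listed summed to 12853, 25037, 10364 and 6853 CPM, more than in the Paneth-rule cells of each library. Fabp1 was at 156, 392, 491 and 1402 CPM in Paneth-rule cells and at 2655, 4652, 10184 and 2154 CPM in other epithelial barcodes. Its difference of differences was 1.67 (SE 0.34, adjusted p = 0.00074 in edgeR). A single cell gave 79.1% of the Fabp1 UMIs in ApcMin 2 and 49.7% in VApcMinL 2. In kit 3 the gene was higher in the VApcMinL Paneth-rule cells and lower in the other epithelial barcodes of the same library. Further calls were the Wnt antagonists Notum at 2.43 (SE 0.63) and Wif1 at 5.30 (SE 1.15), the latter on 0, 2.90, 0.640 and 11.4 CPM, of which a single cell gave 70.0% in VApcMinL 2.

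These calls depended on the test. DESeq2 called 0 genes, with 72 at an unadjusted p under 0.05, and edgeR called 3 in the members of 5% or more. The fit has 1 residual degree of freedom, and the fit within Paneth-rule cells has as few. The standard errors of this second fit were smaller than those of the fit within Paneth-rule cells, at 0.31 against 1.07 for Itln1.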

How the data were processed

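Cells of dissociated adenomas were profiled with 10x 3′ kits in 4 libraries. The authors aligned reads to mm10 and produced the deposited UMI counts, which are raw matrices of all barcodes. The methods name Cell Ranger 2.1.1 and Seurat 3.1.1, and the kit 3 matrix headers name Cell Ranger 3.1.0. The 27514 genes shared by both annotations were matched by Ensembl ID. Levels are CPM of UMIs summed over the cells of a library, not divided by gene length. Groups and kits came from the labels. The members, gene lists and tests were chosen with earlier results of these data known.

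Sums were tested with edgeR 4.0.16 (R 4.3.3; quasi-likelihood, TMM scaling, minimum count 10, Benjamini-Hochberg adjustment, threshold 0.05), with kit and group as terms. DESeq2 1.42.0 was the alternative. Replicate numbers mark the reagent kit and so pair the libraries, and deviations from the group means of the pairs correlated at r = 0.171 over 6520 genes. The difference of contrasts used 8 sums (Paneth-rule and other epithelial barcodes of 4 libraries) with library, class, class by kit and class by group. Shares were compared by exact permutation tests (scipy 1.17.1). The methods speak of separate experiments, but the labels do not tie a library to its animals, so p-values measure the spread between these libraries. Epithelial barcodes lacked Ptprc and detected 3 of 8 epithelial genes. Doublets were scored with Scrublet (scanpy 1.11.5) and kept. Both fits were also run on simulated data, but the outcome is not given here and lends the calls no weight. Named genes were Lef1, the rule genes, the gene lists, the 20 leading genes and, for the group contrast, up to 10 called genes in each direction at 20 CPM or more with the same direction in both kits, or the 5 with the smallest unadjusted p. Alternatives changed the rule, depth and mitochondrial limits, doublets, tool, scaling, filter, block, thinning and libraries. Leaving out members under 5%, goblet-type members or the largest cell was chosen after seeing the data.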

Additional observations from a re-analysis of the deposited data

Results flagged for a closer look

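The group difference differed between Paneth-rule cells and other epithelial barcodes for 49 genes, by edgeR's test of the difference itself, and besides the rule gene Lyz1, 16 of them are on the gene lists. The values below are the log2 difference of VApcMinL minus ApcMin in Paneth-rule cells minus that in other epithelial barcodes. Among genes on the antimicrobial list it was -1.62 for Itln1, -1.22 for Mptx2, -2.18 for Defa22 and -1.67 for Gm7861. On the same list it was -1.21 for Clps, which encodes colipase, and -2.18 for the lipase gene Pnliprp2. In VApcMinL 1 a single cell gave 100% of the Defa22 and Gm7861 UMIs. Defa22 and Gm7861 are alpha-defensins that can share reads with the rule genes, so their values are a description.

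Enterocyte genes went the other way, at 3.11 for Sis, 1.67 for Fabp1, 1.48 for Apoa4, 1.37 for Rbp2 and 1.23 for Apoa1. The enterocyte genes as a sum were higher in free RNA than in Paneth-rule cells in every library, and the part of free RNA was not tested. The Wnt antagonists Wif1 and Notum were at 5.30 and 2.43, the regenerating gene Reg1 at 1.93, the hormone gene Sct, which encodes secretin, at 1.94, and the trefoil gene Tff2 at -1.92.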

How the results depend on the processing

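The kit is the replicate block of both fits. Without the replicate block the group contrast called 0 genes and the difference of contrasts 43, so the block changed neither outcome by over 1.5 times. The group contrast, 0 genes by edgeR, gave 1 gene with a rule share of 0.5%, 2 with 2%, 11 by DESeq2 and 16 without the low-count filter. It gave 1 with members of 5% or more and 1 with the largest cell left out. Leaving out 1 library, with no block, gave 2 to 34 genes (2, 34, 22 and 4 without ApcMin 1, VApcMinL 1, ApcMin 2 and VApcMinL 2), with the lone library of a group assumed to vary like the others. The other settings gave 0. The 49 genes of the difference of contrasts became 0 by DESeq2 and 3 with members of 5% or more, and 9 to 87 with a library left out (87 without ApcMin 1, 9 without ApcMin 2). The fits of the difference of contrasts with a library left out also had no block, and the cause of these changes was not tested. The share difference was -0.628 points with a mitochondrial limit of 10%, and -0.383 to 0.219 with a library left out. The Msx1 difference was 7.46 points without thinning, 0 with members of 5% or more, and 0 to 6.52 with a library left out. Tff2 reversed to 2.81 in the group contrast outside the goblet-type rule. In the difference of contrasts Sis reversed to -0.17 without VApcMinL 2, Notum to -0.094 without ApcMin 2, Pnliprp2 to 0.38 without VApcMinL 1 and Tff2 to 1.19 with members of 5% or more. Of 174 values for 16 genes in that comparison, 88 kept direction and call and 82 kept direction only. With 15 to 46 cells per library, cell number limits every sum.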
